A study of Mus musculus with 4 samples.

Results

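The expression of 10 mouse genes of the MHC class I antigen presentation pathway was examined in primary hepatocytes with and without dynamin-related protein 1 (Drp1). The genes were H2-K1, H2-D1, B2m, Tap1, Tap2, Tapbp, Psmb8, Psmb9, Psmb10 and Nlrc5, and their probes were found by gene name, with no measured value in the rule. They were represented by 17 of the 56605 probes on the array, and on at least 1 array 15 of these probes carried the scanner software's flag for signal well above background. Each of the 10 genes had a probe well above background on all 4 arrays, and 20615 genes had such a probe on at least 1 array.

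Drp1, encoded by Dnm1l, is the GTPase that divides mitochondria. The study asked how its loss alters gene expression in hepatocytes, immune genes among them. Cells of C57BL/6 mice came from Drp1LiKO animals (Alb-Cre Tg/+ Drp1 flox/flox, in which the albumin promoter drives Cre and so restricts recombination to cells with an active albumin gene) or from control animals. The methods describe the controls as Drp1 flox/flox littermates, whereas the sample labels call them wild-type. The methods name male mice, and the animals' age was not given in the sources used here. Hepatocytes were pelleted after collagenase perfusion, plated on collagen and harvested 24 h after seeding, either untreated or exposed to 200 μM palmitate, a saturated fatty acid. Each of the 4 groups (control, Drp1LiKO, control palmitate, Drp1LiKO palmitate) was 1 array, and whether its RNA came from 1 animal or from several was not given. According to its label, the untreated control array shares its raw data with a sample deposited elsewhere. Both untreated arrays lay on slide 1 and both palmitate arrays on slide 2, so that palmitate and slide cannot be told apart, whereas each genotype comparison was made within 1 slide.

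Class I molecules display peptides from inside the cell to cytotoxic T cells and are carried by nearly all nucleated cells, hepatocytes included. The immunoproteasome cuts proteins into peptides, the TAP transporter moves the peptides into the endoplasmic reticulum, tapasin helps load them onto a heavy chain, and β2-microglobulin holds the loaded heavy chain together. Interferons are known inducers of the whole pathway, and NLRC5 is the transactivator that acts with factors bound to class I promoters.

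Values are log2 intensities relative to the 75th percentile of the same array, which is 0, and they show changes relative to the bulk of transcripts. Because probes differ in how well they hybridise, values were compared between arrays and never between genes. With 1 array per group there is no replicate spread, and no test of a single pair of arrays is possible. The scanner software's own error estimate came to between 0.204 and 0.205 log2 units for the difference of 2 arrays for these genes. It was nearly the same for each of them, so 2 scanner errors serve as a nearly fixed threshold and not as a spread measured here. The spread of repeat spots within an array was smaller, at 0.0556 log2 units for a difference of 2 arrays. The scanner error covers a single spot on a single array, and neither figure covers the spread between animals or cultures. The gene targeted by the knockout followed the labels in its brighter probe: Dnm1l read 2.42 on the control array, 1.07 on the Drp1LiKO array, 2.43 on control palmitate and 1.01 on Drp1LiKO palmitate (probe at mm9 chr16:16312363-16312422). Its other probe, at mm9 chr16:16336911-16336970, was near the lowest signal well above background. It differed by -0.35 in untreated cells and was not well above background on either palmitate array. Whether either probe lies in the floxed part was not given in the sources used here. Between 44.7% and 51.1% of probes were well above background on an array.

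**Figure D1:**
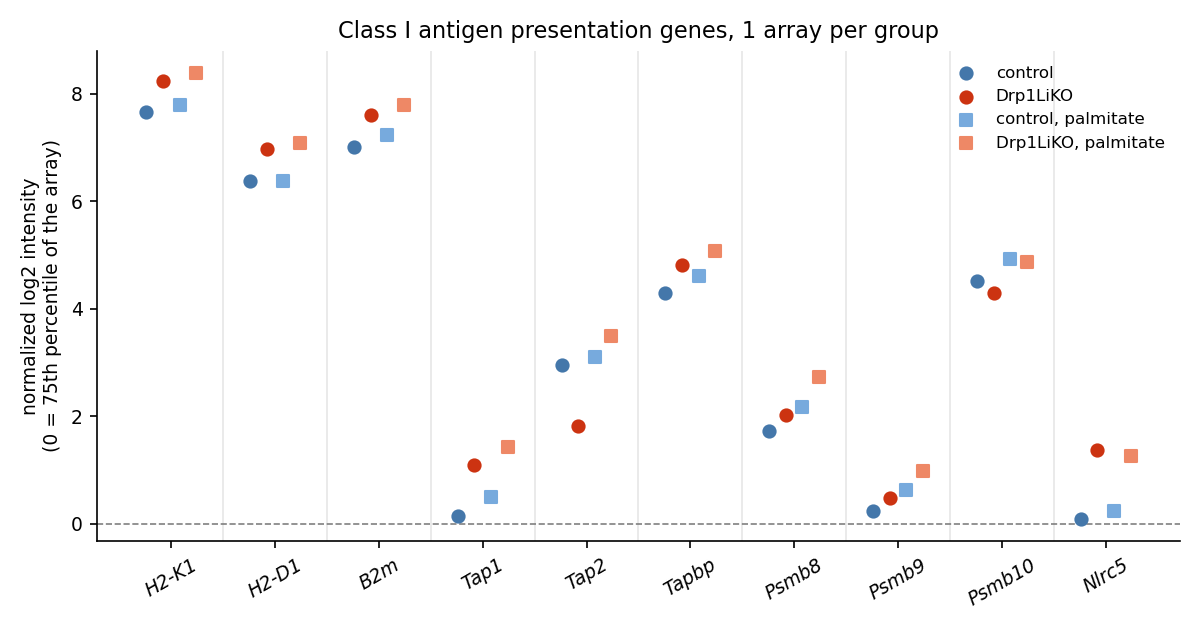
Normalized log2 intensity of each class I presentation gene (vertical axis, 0 is the 75th percentile of the array) on the 4 arrays, 1 point per array. For 8 of the 10 genes both Drp1LiKO points lie above the control point of the same treatment, whereas Psmb10 lies below it under both treatments and Tap2 is lowest on the untreated Drp1LiKO array.

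Most of the pathway was higher in Drp1LiKO hepatocytes than in control hepatocytes, by amounts that were under 2-fold for nearly every gene. In untreated cells 8 of the 10 genes were higher and 2, Tap2 and Psmb10, were lower. Under palmitate 9 were higher and Psmb10 alone was lower. The median log2 difference over the 10 genes was 0.54 in untreated cells and 0.56 under palmitate, whereas the median over all genes above background on both arrays was -0.04 (17652 genes) and -0.05 (16784 genes). In all, 45.3% of all genes were higher in untreated Drp1LiKO cells and 42.9% under palmitate. The 10th and 90th percentiles of all genes were -0.56 and 0.60 in untreated cells and -0.46 and 0.48 under palmitate, so that most of the 10 differences lay near the upper end of the common range and not far outside it.

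At a threshold of 2-fold, Nlrc5 was the only gene that was higher in untreated Drp1LiKO cells, 1 of 10, where 8.84% of all genes were that much higher. Tap2 was the only one that was lower by 2-fold, where 5.58% of all genes were. Under palmitate Nlrc5 again passed as the only higher gene beside 7.26% of all genes, and none of the 10 was 2-fold lower beside 4.26%. Counted at the smaller shift of 0.5 log2 units, a threshold chosen after the values were seen, 6 of 10 genes were higher in untreated Drp1LiKO cells (H2-K1, H2-D1, B2m, Tap1, Tapbp and Nlrc5) against 12.5% of all genes above background on both arrays. Under palmitate 6 of 10 were higher by that amount (H2-K1, H2-D1, B2m, Tap1, Psmb8 and Nlrc5) against 9.62% of all genes. With each array centred on its median in place of its 75th percentile, the median of all genes moved to -0.22 and -0.20, and the number of the 10 genes past 0.5 log2 units dropped to 2 in untreated cells (Tap1, Nlrc5) and 3 under palmitate (H2-D1, Tap1, Nlrc5), with 8.38% and 6.54% of all genes past it.

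**Figure D2:**
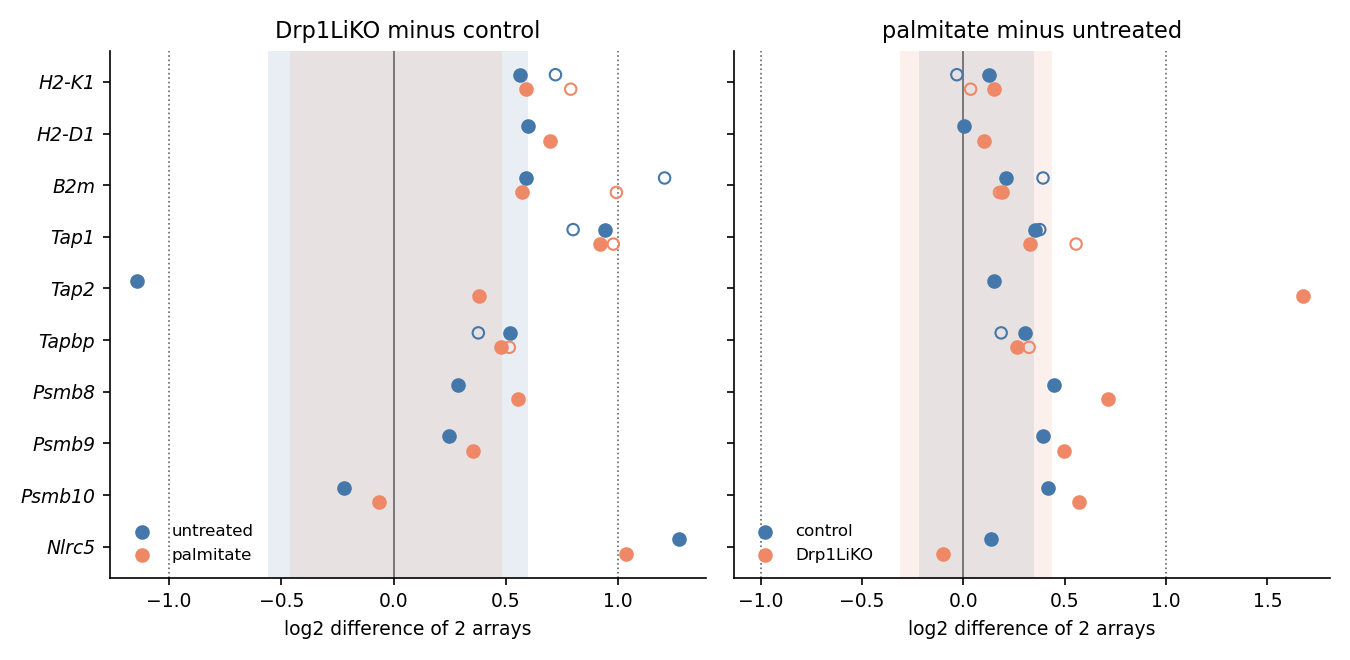
Log2 difference of 2 arrays for each class I presentation gene, Drp1LiKO minus control (left) and palmitate minus untreated (right). Filled points are the probe that stands for the gene, open points are its other probe where that probe was well above background on all 4 arrays, shaded bands run from the 10th to the 90th percentile of all genes and dotted lines mark 2-fold. Nlrc5 and Tap1 lie right of both bands on the left panel, and Tap2 lies at 1.67 for Drp1LiKO on the right panel.

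Markers of other liver cells moved with the genotype as well. The 12 macrophage markers, of which 11 were measured, summed to 9.69 times the 75th percentile in control cells, 37.1 in Drp1LiKO cells, 12.2 in palmitate-treated control cells and 34.6 in palmitate-treated Drp1LiKO cells. That was 3.83-fold and 2.83-fold higher in Drp1LiKO cells, with only Timd4 not above background on any array. Stellate markers were 10.3-fold and 10.9-fold higher, endothelial markers 2.92-fold and 2.11-fold, and general leukocyte markers 2.78-fold and 2.28-fold, although Ptprc, the common leukocyte antigen, differed by 0.16 and -0.02. Such sums follow the brightest probes, and the brightest stellate marker on both Drp1LiKO arrays was Dcn (2.94 and 3.49). Of 7 measured stellate markers, 4 were above background in control cells and 3 in palmitate-treated control cells. Under palmitate 7 of 8 endothelial markers were higher, and Tek, above background in control cells only, was lower. Class II and dendritic cell markers summed to 1.28-fold and 1.11-fold but differed among themselves. Cd74, the invariant chain, was higher by 2.40 and 2.04, whereas H2-Ab1 differed by -0.24 and -0.28 and H2-Eb1 by 0.26 and 0.28. H2-Aa was above background in untreated Drp1LiKO cells only, and Ciita, Itgax, Flt3 and Xcr1 were not above background on any array. Lymphocyte markers were at 0.814-fold and 0.933-fold, with 5 of 9 not above background on any array. Cd3e differed by -0.09 and -0.21 and Cd4 by -0.37 and -0.21, whereas Cd79a and Ms4a1 were above background in palmitate-treated Drp1LiKO cells only. Of the 5 neutrophil markers 0 were above background in control cells, 1 in Drp1LiKO cells, 1 in palmitate-treated control cells and 2 in palmitate-treated Drp1LiKO cells, and S100a9, Mpo and Ngp were not above background on any array. The 10 hepatocyte markers were all above background on every array and summed to 1.16-fold and 1.14-fold. All these cells carry class I molecules, and fewer cells of a type and less RNA per cell cannot be told apart in bulk RNA. The part of the other cell types in the class I differences was not tested.

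**Figure D3:**
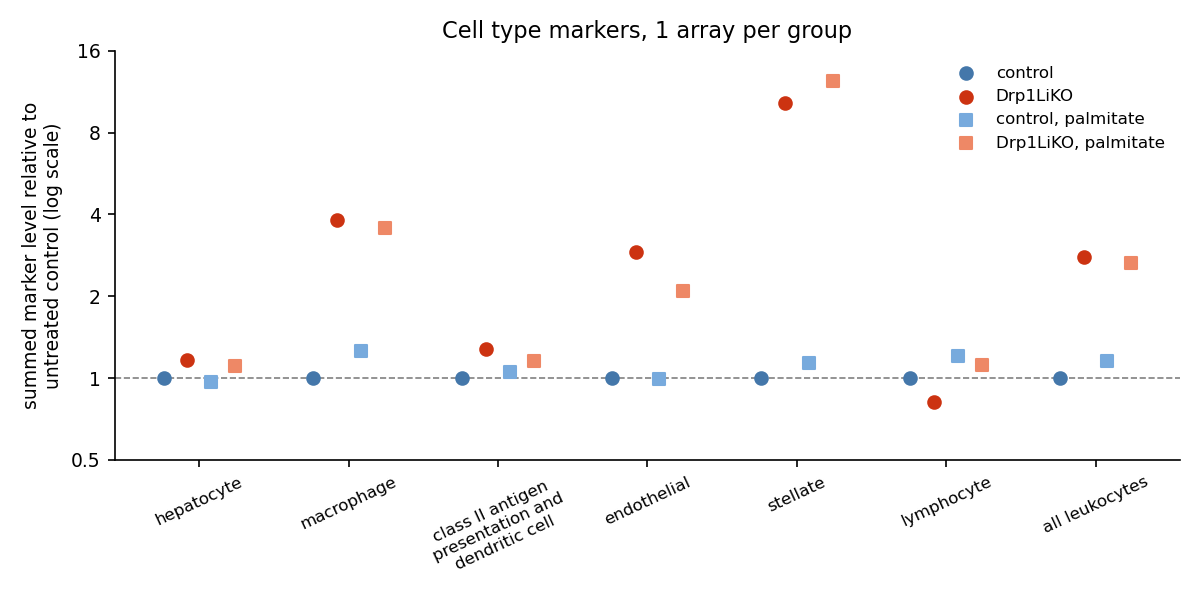
Summed level of each marker list relative to the untreated control array (vertical axis, log scale), 1 point per array, for lists with at least 4 measured markers. Macrophage, endothelial, stellate and general leukocyte sums are higher on both Drp1LiKO arrays than on both control arrays, and hepatocyte sums stay near 1.

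The classical heavy chains were higher in both Drp1LiKO arrays. H2-K1, a classical heavy chain of the mouse class I molecule, read 7.67 in control cells, 8.24 in Drp1LiKO cells, 7.80 in palmitate-treated control cells and 8.39 in palmitate-treated Drp1LiKO cells (probe at mm9 chr17:34133055-34133114). Both Drp1LiKO arrays were above both control arrays, by 0.56 (1.48-fold) in untreated cells and 0.59 (1.51-fold) under palmitate. The other H2-K1 probe, at mm9 chr17:34133984-34134043, read 6.07, 6.79, 6.04 and 6.83 in the same order of arrays and gave differences of 0.72 and 0.79. H2-D1, the classical heavy chain encoded at the other end of the complex, read 6.38, 6.98, 6.39 and 7.08 (its only probe, mm9 chr17:35403886-35403945). Its genotype differences were 0.60 (1.51-fold) and 0.69 (1.62-fold), and again both Drp1LiKO arrays were above both control arrays. The share of all genes with that order of arrays was not counted, so for this and the other genes the order is a description only. Class I heavy chain genes are close to identical over long stretches, and signal from related transcripts on these probes cannot be told apart from their own.

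The light chain was higher on the Drp1LiKO arrays as well. B2m, which encodes β2-microglobulin, read 7.02 in control cells, 7.61 in Drp1LiKO cells, 7.23 in palmitate-treated control cells and 7.80 in palmitate-treated Drp1LiKO cells (probe at mm9 chr2:121978401-121978460). The genotype differences were 0.59 and 0.57 (1.49-fold), with both Drp1LiKO arrays above both control arrays. The other B2m probe, at mm9 chr2:121974599-121974658, read -2.15, -0.94, -1.76 and -0.77. It gave larger differences, 1.21 (2.31-fold) and 0.99 (1.99-fold), in the same direction. Among all genes above background on both arrays, the differences of H2-K1, H2-D1 and B2m were higher than those of 89.3%, 89.9% and 89.8% in untreated cells and of 92.5%, 94.2% and 92.0% under palmitate.

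The promoters of these 3 genes were compared, a choice made after their values were seen. They were not the only ones of the 10 genes that were higher together. Tap1 differed by 0.94 and 0.92 and Tapbp by 0.52 and 0.48. RefSeq promoter windows (GRCm38.p6, 250 bases before to 50 after the annotated start) were found for 8 of the 10 genes, without Tap2 and Nlrc5. The motifs searched, on both strands, were 4: AANNGAAA for interferon regulatory factors (IRF), TGACG for the core of the cAMP response element, ATTGG for the Y box bound by NF-Y, and the kappa B consensus, bound by NF-kB. The stretches below are shown because they hold, in one block, elements known from class I promoters. Each is written 5′ to 3′ on the strand of the gene, with motif matches in capitals, and the regions are chr17:34000351-34000466 (minus strand) for H2-K1, chr17:35262915-35263053 (plus strand) for H2-D1 and chr2:122147542-122147646 (plus strand) for B2m.
H2-K1: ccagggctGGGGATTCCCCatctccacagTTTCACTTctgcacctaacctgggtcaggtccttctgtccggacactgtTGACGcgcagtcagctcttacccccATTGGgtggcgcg
H2-D1: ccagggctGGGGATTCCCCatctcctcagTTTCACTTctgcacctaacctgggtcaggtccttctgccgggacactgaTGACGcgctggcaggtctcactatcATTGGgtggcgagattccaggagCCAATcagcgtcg
B2m: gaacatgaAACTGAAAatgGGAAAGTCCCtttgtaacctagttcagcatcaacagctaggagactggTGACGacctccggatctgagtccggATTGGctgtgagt

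In all 3 stretches TGACG was followed by ATTGG after exactly 20 bases, a spacing noticed after the sequences were read. A pair so spaced occurred in 31 of 32851 RefSeq windows (0.0944%), from 27 of 27025 genes, of which H2-M3, another class I gene, was one. The 30-base blocks from TGACG to ATTGG shared 23 positions between H2-K1 and H2-D1, 13 between H2-K1 and B2m and 12 between H2-D1 and B2m, and 10 of these positions belong to the motifs themselves. The IRF motif was found in H2-K1, H2-D1 and B2m and in no other of the 8 windows, and it occurs in 23.9% of all windows. The kappa B consensus was found in the same 3 genes and in 4.51% of all windows. Tap1 and Tapbp, which were also higher in Drp1LiKO cells, held neither motif, so these motifs do not follow the expression differences across the windows. TGACG was present in 5 of the 8 windows (20.8% of all) and ATTGG in 6 of the 8 (37.4% of all). A match is a stretch of letters and not a measured binding site.

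**Figure D4:**
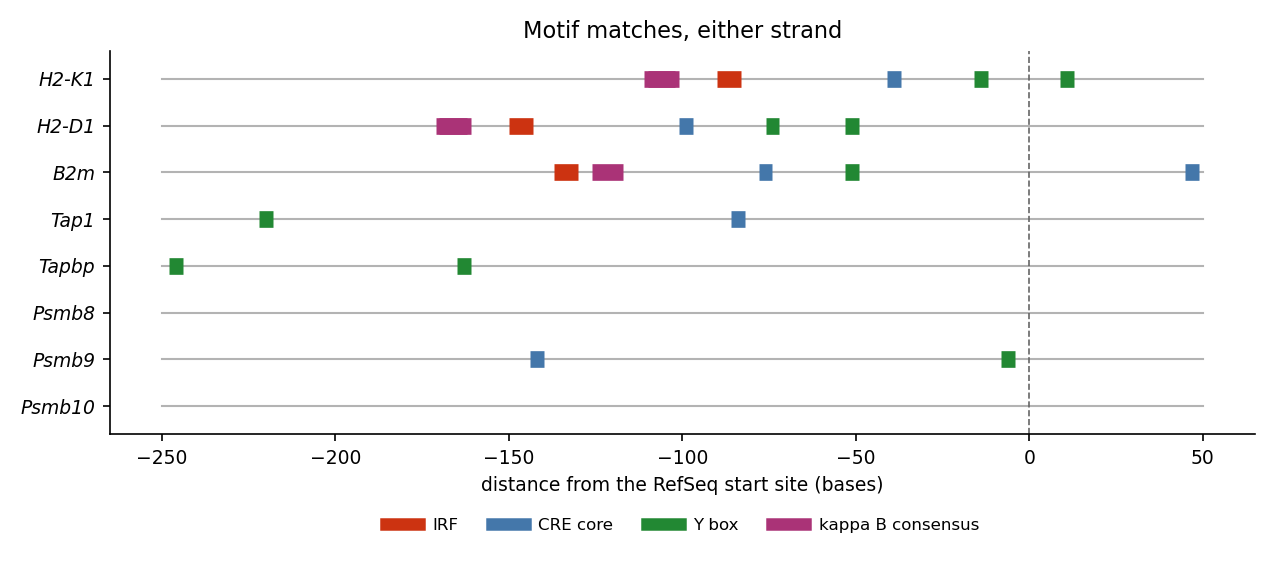
Motif matches on either strand in the promoter windows of the 8 class I presentation genes with a RefSeq window, against distance from the annotated start in bases. H2-K1, H2-D1 and B2m hold matches to all 4 motifs, Psmb8 and Psmb10 hold none.

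The peptide transporter genes differed from each other. Tap1, which encodes a subunit of the TAP transporter, read 0.15 in control cells, 1.09 in Drp1LiKO cells, 0.50 in palmitate-treated control cells and 1.42 in palmitate-treated Drp1LiKO cells (probe at mm9 chr17:34334022-34334081). Both Drp1LiKO arrays were above both control arrays, by 0.94 (1.92-fold) in untreated cells and 0.92 (1.89-fold) under palmitate. The other Tap1 probe, at mm9 chr17:34330854-34330913, read -2.15, -1.35, -1.77 and -0.79 and gave 0.80 and 0.98. The Tap1 difference exceeded that of 95.0% of all genes in untreated cells and of 96.4% under palmitate.

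Tap2, the partner subunit, did not follow this order. It read 2.96 in control cells, 1.81 in Drp1LiKO cells, 3.11 in palmitate-treated control cells and 3.49 in palmitate-treated Drp1LiKO cells (probe at mm9 chr17:34353116-34353175). The untreated Drp1LiKO array stood below the other 3, which lay within 0.53 log2 units of each other. The genotype difference was therefore -1.14 in untreated cells and 0.38 under palmitate, and the palmitate difference was 0.15 in control cells and 1.67 (3.19-fold) in Drp1LiKO cells. The other Tap2 probe, at mm9 chr17:34341478-34341537, was not well above background on any array and gives no second reading. Of the 24 spots around the Tap2 spot that was measured, 0 were dim and 0 were bright on that array alone. The untreated Drp1LiKO array did hold more probes that were dim on it alone than any other array, 214 against 56, 83 and 47, counted as probes at least 1 log2 unit below the median of the other 3 arrays where those 3 lay within 0.7. The part of this in the Tap2 value was not tested, and both differences that include that array rest on 1 spot.

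Tapbp encodes tapasin, which bridges TAP and the heavy chain. It read 4.30 in control cells, 4.82 in Drp1LiKO cells, 4.60 in palmitate-treated control cells and 5.08 in palmitate-treated Drp1LiKO cells (probe at mm9 chr17:34066022-34066081). The Drp1LiKO arrays were the higher of each pair, by 0.52 (1.43-fold) and 0.48 (1.39-fold). The other probe, at mm9 chr17:34063096-34063155, read -0.86, -0.48, -0.67 and -0.16 and gave 0.38 and 0.52.

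The 3 immunoproteasome subunits, which replace the catalytic subunits of the constitutive proteasome, showed small genotype differences. Psmb8 read 1.73 in control cells, 2.02 in Drp1LiKO cells, 2.18 in palmitate-treated control cells and 2.73 in palmitate-treated Drp1LiKO cells (mm9 chr17:34337771-34337830). The difference was 0.29 in untreated cells, within 2 scanner errors, and 0.55 (1.47-fold) under palmitate. Psmb9 read 0.23, 0.48, 0.62 and 0.97 (mm9 chr17:34319174-34319233), and its differences of 0.25 and 0.35 were both within 2 scanner errors. Here the untreated Drp1LiKO array lay below the control palmitate array, as it did for Psmb8. The other Psmb9 probe, at mm9 chr17:34322762-34322821, was not well above background on any array. Psmb10 read 4.52, 4.30, 4.94 and 4.87 (mm9 chr8:108459677-108459736) and was the one gene lower in both Drp1LiKO arrays, by differences of -0.22 and -0.07 that were within 2 scanner errors.

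Tap1 and Psmb9 are neighbours transcribed in opposite directions, and their promoter windows share 275 of 300 bases (GRCm38.p6 chr17:34187306-34187580), with 225 bases between the annotated starts. With this stretch in common, the genotype difference of Tap1 was 0.94 in untreated cells beside 0.25 for Psmb9. The upstream stretch of Tap1, chr17:34187326-34187482 on the plus strand, is shown because it lies between both genes, apart from its first few bases, which fall within Psmb9. It holds TGACG and, as its reverse complement, ATTGG, in an arrangement other than that of the heavy chains.
Tap1: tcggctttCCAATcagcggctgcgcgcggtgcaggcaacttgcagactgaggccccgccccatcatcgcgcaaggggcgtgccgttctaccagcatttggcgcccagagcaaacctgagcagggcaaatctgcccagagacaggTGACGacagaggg

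Nlrc5, the class I transactivator, showed the greatest genotype difference of the 10 genes that kept 1 direction. It read 0.10 in control cells, 1.37 in Drp1LiKO cells, 0.23 in palmitate-treated control cells and 1.27 in palmitate-treated Drp1LiKO cells (probe at mm9 chr8:97051105-97051164). The Drp1LiKO arrays were higher by 1.27 (2.41-fold) in untreated cells and by 1.03 (2.05-fold) under palmitate, and each lay above both control arrays. The Nlrc5 difference exceeded that of 97.1% of all genes in each genotype comparison. Its other probe, at mm9 chr8:97030478-97030624, was well above background on the untreated Drp1LiKO array only, which gave a difference of at least 1.71-fold over the control array, taken against the lowest signal well above background there. On that probe the palmitate arrays gave no genotype difference, since neither was well above background. Under palmitate the Nlrc5 difference fell under 2-fold in other settings, at 0.96 after normexp background correction, 0.89 with median centring and 0.46 as the mean of both probes, of which one was below background on both arrays.

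All 4 arrays could be fitted together with 1 term for genotype and 1 for palmitate, which leaves 1 residual degree of freedom that also holds any difference between the genotypes' responses. In this additive limma fit, two-sided with Benjamini-Hochberg adjustment over 20615 genes, genotype was called for 0 of the 10 genes, where 0% of all genes were called. The effects ± SE were 1.15 ± 0.11 for Nlrc5, 0.93 ± 0.07 for Tap1, 0.65 ± 0.08 for H2-D1, 0.58 ± 0.07 for B2m, 0.58 ± 0.07 for H2-K1 and 0.50 ± 0.07 for Tapbp. Tap1 had the smallest adjusted p among the 10, limma adjusted p = 0.119, and no gene of the array had a smaller one. The adjustment gives this same value to a run of genes, so it does not place Tap1 first on the array. Before adjustment 6 of the 10 and 5363 of all genes had p under 0.05. Psmb8 had 0.42 ± 0.11, Psmb9 0.30 ± 0.08, Psmb10 -0.14 ± 0.09 and Tap2 -0.38 ± 0.52.

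The calls changed with the variance model, the filter and the background correction. With an intensity trend in the variance, 8 of 10 genes were called for genotype (not Tap2 or Psmb10) where 26.0% of all genes were called. With the fit restricted to genes above background on all 4 arrays, 6 of 10 were called (H2-K1, H2-D1, B2m, Tap1, Tapbp and Nlrc5) where 15.6% of 16619 genes were. After normexp correction 5 of 10 were called (H2-K1, H2-D1, B2m, Tap1 and Nlrc5) where 7.26% of all genes were. The deposited value table and the mean of a gene's probes called 0 of 10, where 0% of all genes were called in either setting.

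Between palmitate and untreated arrays the differences were under 2-fold, Tap2 in Drp1LiKO cells apart, and among the other genes they were largest for the immunoproteasome subunits. In control cells none of the 10 genes was 2-fold higher, beside 2.83% of all genes, and none was 2-fold lower, beside 2.87%. None passed 0.5 log2 units either, where 5.38% of all genes did. In Drp1LiKO cells Tap2 alone was 2-fold higher, beside 3.93%, and none was 2-fold lower, beside 3.11%. Tap2, Psmb8 and Psmb10 passed 0.5 log2 units there, 3 of 10 beside 8.04%. The median difference of the 10 genes was 0.26 in control cells and 0.30 in Drp1LiKO cells, against 0.01 for all genes in each.

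Psmb8 was higher under palmitate by 0.45 (1.36-fold) in control cells and 0.71 (1.64-fold) in Drp1LiKO cells. Psmb10 was higher by 0.42 (1.33-fold) and 0.57 (1.48-fold), and Psmb9 by 0.39, within 2 scanner errors, and 0.49. The values for Tap1 were 0.35 and 0.33, and those for Tapbp 0.31 and 0.27, all within 2 scanner errors. The chains of the classical molecule also differed within 2 scanner errors, H2-K1 by 0.13 and 0.15 and B2m by 0.21 and 0.19. Of the 10 genes, 2 exceeded 2 scanner errors in control cells and 4 in Drp1LiKO cells, and the share of all genes that did was not counted. For scale, the 90th percentile of all genes above background on both arrays was 0.35 in control cells and 0.44 in Drp1LiKO cells. H2-D1 differed by 0.00 in control cells, with a low of -0.05 in other settings, and by 0.10 in Drp1LiKO cells. Nlrc5 was 0.13 higher in control cells and 0.10 log2 units lower (-0.10) in Drp1LiKO cells, both within 2 scanner errors. Its other probe was at least 1.47-fold lower under palmitate in Drp1LiKO cells, being above background on the untreated array only, and the mean of both probes gave -0.98 there. The limma fit called palmitate for 0 of 10 genes (0% of all genes), with 5 of the 10 and 1995 of all genes at p under 0.05 before adjustment. With the intensity trend Psmb10 alone was called, limma adjusted p = 0.0463, where 0.902% of all genes were. Because treatment and slide coincide, these differences cannot be told apart from a difference between slides.

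Beyond the 10 genes, 16 other class I heavy chains were above background on all 4 arrays, and most of them were also higher in Drp1LiKO cells. As for H2-K1 and H2-D1, signal from related transcripts cannot be told apart from their own, so the 16 are not independent readings. In untreated cells 13 of the 16 were higher and 3 lower. Under palmitate 14 were higher and 2 lower. The medians were 0.56 and 0.73 (0.38 and 0.58 with median centring). H2-T24 was above background on the Drp1LiKO arrays only. Those at least 2-fold higher were H2-T10 and H2-T22, nonclassical genes whose products bind γδ T cell receptors. That was 2 of 16 in each genotype comparison, where 8.84% of all genes in untreated cells and 7.26% under palmitate were that much higher. H2-T10 read 2.15 in control cells, 3.48 in Drp1LiKO cells, 2.30 in palmitate-treated control cells and 3.65 in palmitate-treated Drp1LiKO cells. H2-T22 read 4.06, 5.38, 4.21 and 5.51. The pair gave differences of 1.33 and 1.32 in untreated cells and 1.34 and 1.30 under palmitate. H2-Q6 was not found under that name on the array.

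For the constitutive partners of the pathway the differences lay near or below 0. Of the 14 subunits of the constitutive proteasome core, 12 were lower in Drp1LiKO cells in each genotype comparison, with medians of -0.19 and -0.16 and none past 2-fold. These medians were below 0 in every other setting too. The 3 subunits that the immunoproteasome subunits replace were Psmb5 (-0.30 and -0.18), Psmb6 (-0.39 and -0.23) and Psmb7 (-0.11 and 0.01). Genes for peptide trimming and loading, 11 in all, had medians of -0.02 and 0.05, and 8 genes for proteasome activation and assembly had -0.09 and -0.03. The signs of the first list changed between settings, as did that of the second under palmitate, where the mean of a gene's probes gave 0.02. In the second list, Psme1, a subunit of the interferon-inducible proteasome activator, differed by 0.18 and 0.10, and Psme2 was not found under that name. No gene of these lists passed 2-fold in either comparison.

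**Figure D5:**
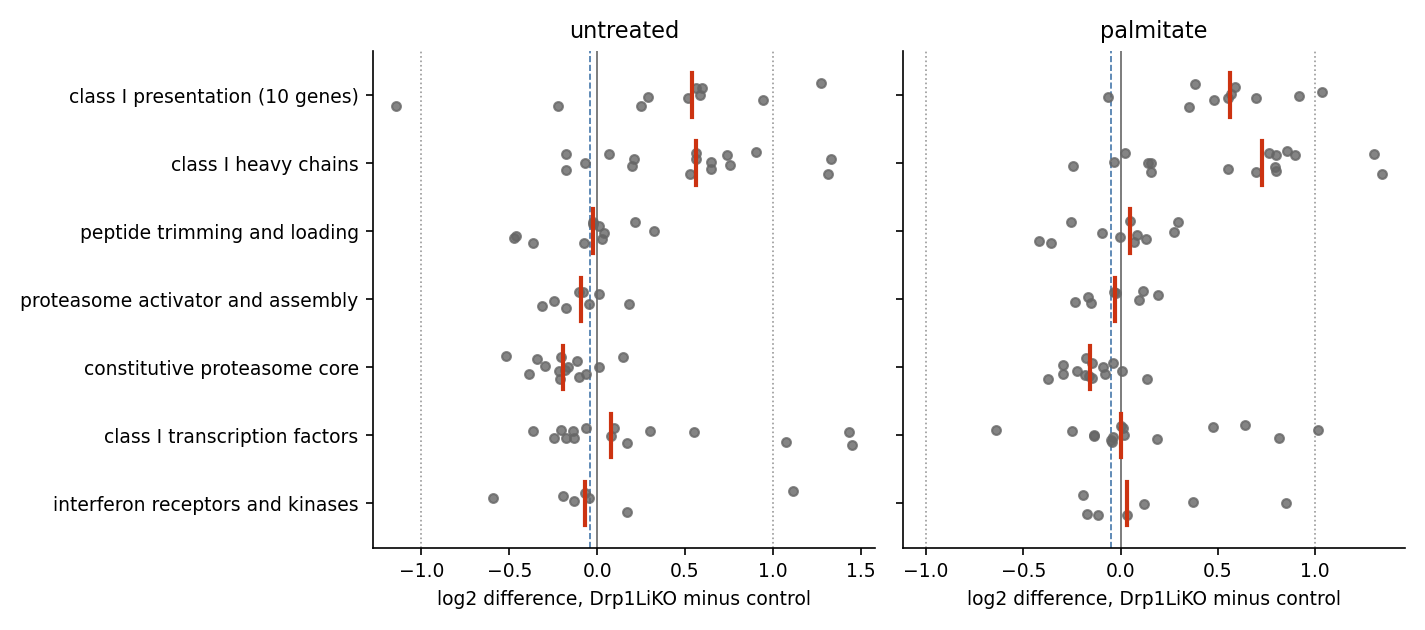
Log2 difference of Drp1LiKO minus control for genes well above background on all 4 arrays, by list, in untreated cells (left) and under palmitate (right). Each grey point is 1 gene, the red bar is the median of the list, the dashed line is the median of all genes and dotted lines mark 2-fold. The class I presentation genes and the heavy chains lie mostly right of 0 and the constitutive core mostly left of it.

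Among 16 transcription factors that act on class I promoters, the differences were mostly small. Stat2, which carries interferon signals to the nucleus, differed by 1.45 in untreated cells and 1.02 under palmitate and was the only one of the list past 2-fold in both comparisons. Irf9, its DNA-binding partner, differed by 1.08 and 0.64. Irf1, which binds the IRF motif, differed by -0.14 and -0.04. Rfx5, a subunit of the RFX complex with which NLRC5 acts, was above background on the untreated arrays only, with a difference of -0.28. The other subunits of that complex differed by 0.55 and 0.48 (Rfxank) and by 0.30 and 0.19 (Rfxap). The list as a whole had medians of 0.01 and 0.00 (-0.17 and -0.15 with median centring), with 8 of 16 and 8 of 15 genes higher. Of 7 interferon receptors and their kinases, 1 was 2-fold higher in untreated cells, where 8.84% of all genes were. It was the receptor chain Ifnar1, which differed by 1.11 there and 0.85 under palmitate. The kinase Tyk2 differed by -0.59 and 0.37.

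The pattern over the 4 arrays, averaged over the 10 genes after centring each on its own mean, was -0.36, 0.01, -0.10 and 0.45. The nearest of 16601 other genes, by Euclidean distance over 4 arrays, were Ddo, LOC102642943, Slc25a27, Mag and AU024679, at distances of 0.0315 to 0.0538. The median distance over all genes was 0.677. Without Tap2, an alternative chosen after seeing the data, they were Dvl2, 1700001C19Rik, Snx30, Pttg1 and 2610203C22Rik, at 0.0354 to 0.0554. With 4 arrays, likeness of this kind is a description only.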

How the data were processed

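The authors labelled RNA with 1 dye (Cy3) and hybridised it to a mouse oligonucleotide array. The deposited scanner values are linear intensities, background-subtracted within each array by Feature Extraction (10.7.1.1 in the file headers, 9.5.1.1 in the submitters' processing notes), with no scaling between arrays. The authors also deposited a processed intensity table whose 4 columns hold the same sorted values, as quantile normalization gives. This table was used as an alternative. For RNA extraction the kit in the labels differs from that in the methods. The array design places probes on mm9, RefSeq promoters are on GRCm38.p6, and no coordinate was converted. No gene model on mm9 was used here, so whether a probe lies in a coding exon or an untranslated region is not stated.

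Control spots and outlier-flagged spots were left out, repeat spots averaged, and log2 values taken relative to each array's 75th percentile, which lay at intensities of 485, 542, 424 and 468 on the control, Drp1LiKO, control palmitate and Drp1LiKO palmitate arrays. No spot was saturated (0 on each array). Repeat spots of 1 probe had an SD of 0.0337 to 0.0393 log2 units within an array. The brightest probe with signal well above background on any array stood for a gene, and it entered a comparison if above background on at least 1 of the 2 arrays. Precision is limited by having 4 arrays. limma 3.58.1 in R 4.3.3 (lmFit, eBayes) fitted genotype and palmitate additively and was tested on simulated data. Other steps used Python 3.11.15, numpy 2.4.6 and pandas 2.3.3. Alternatives were normexp (offset 50), the deposited table, median centring, a 75th percentile over probes above background on all arrays, other filters on dim probes, values below background raised to a floor, and the mean of a gene's probes. All 10 genes are named with every probe. Of the pathway lists, genes past 2-fold in both genotype comparisons are named, with Psmb5, Psmb6, Psmb7, Psme1, Psme2, Irf1 and Rfx5. Another gene that the naming rule covers is not reported here. Irf9, Ifnar1, Tyk2, Rfxap, Rfxank, H2-Q6, H2-T24, the single markers and undetected markers were named after their values were seen. The genes and lists were chosen with earlier results of these data known. A p-value here measures the spread of 4 arrays around an additive fit, which may be technical.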

Additional observations from a re-analysis of the deposited data

Results flagged for a closer look

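Tap2 was noted because its genotype difference had opposite signs in untreated cells and under palmitate, -1.14 and 0.38 on the log2 scale, which are 1.52 apart. Of 16611 genes above background on all arrays compared, 97 had a larger change between the genotype differences, whose SD over all genes was 0.338. Nlrc5 was noted because its palmitate response had opposite signs, 0.13 in control cells and -0.10 in Drp1LiKO cells, which are -0.24 apart, a change that 4886 of 16611 genes exceeded in size. The other Nlrc5 probe was at least 1.47-fold lower under palmitate in Drp1LiKO cells, and in control cells it was below background with and without palmitate. With 1 array per group neither difference was tested.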

How the results depend on the processing

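Under normexp, median centring and the mean of a gene's probes, the number of the 10 genes at least 2-fold different under palmitate by genotype was 0 in place of 1 (Nlrc5). Median centring lowered the number past 0.5 log2 units from 6 to 2 in untreated cells and from 6 to 3 under palmitate. The limma fit called 8 genes for genotype with the variance trend, 6 on genes above background on all arrays and 5 after normexp, in place of 0, and it called 1 for palmitate with the trend, in place of 0. The cause was not tested. Of 280 single values under alternatives, 44 moved by more than the spread of repeat spots (0.0556 log2 units for a difference), 20 of them under median centring. The only difference whose sign changed was that of H2-D1 for palmitate in control cells. It ranged from -0.05 to 0.00 and so moved by less than that spread. No paired analysis was possible because each group has 1 array. Signal over background limits the other Tap2, Psmb9 and Nlrc5 probes.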
